A study of Rattus norvegicus with 8 samples.

Results

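The genes described here are Nampt, which makes nicotinamide mononucleotide from nicotinamide, and the enzymes that lead from tryptophan to NAD or draw on its intermediates, namely Tdo2, Afmid, Kmo, Kynu, Haao, Qprt, Nadsyn1, Acmsd and Nnmt. These 10 genes, of 15168 with a symbol on the array, were chosen by their place in the pathway and by an earlier reading of these data in which Nampt was near the top of the genes lower in the comparison of 0.5MAhR with Control liver. The differences of the members in that comparison are therefore given as a description with their standard errors, and counts of members past a threshold are printed only beside the share of all genes. Each of the 10 genes was represented by 1 probe, and all 10 probes passed the filter on dim signals in both groups.

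Liver RNA came from male Sprague-Dawley rats at 21 days of age. In the 0.5MAhR group the mothers had received, in corn oil, 0.5 mg/kg/day of a mixture of organochlorine pesticides, polychlorinated biphenyls and methyl mercury, and also compounds that activate the aryl hydrocarbon receptor (AhR), with 6.3 ng/kg/day of TCDD toxic equivalents in all. In the Control group the mothers had received corn oil alone. Pups of both groups stayed with their own mothers and were exposed through them from gestation day 0 to postnatal day 20. Each array carried the pooled RNA of 2 of the 8 pups of a group, giving 4 pools a group, numbered 1 to 4 for 0.5MAhR and 5 to 8 for Control. The labels used here do not name the litters behind the pools, so the spread between arrays is the spread between pools, which may share a mother.

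NAD carries electrons in the energy metabolism of the cell and is consumed by sirtuins and poly(ADP-ribose) polymerases, which release nicotinamide. The salvage route returns that nicotinamide to NAD, with Nampt as its rate-limiting enzyme. The de novo route, which is strongest in the liver, breaks the indole ring of tryptophan and passes through kynurenine and quinolinate to the nicotinate form of the dinucleotide, which is then amidated to NAD.

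Promoter sequences, from 250 bases before to 50 bases after the gene start, were found in the RefSeq table of assembly GRCr8 for 7 of the 10 members, and Nampt, Nnmt and Acmsd were not among them. The promoters were searched on both strands for GCGTG, the core of the AhR response element, and for CACGTG, the E-box bound by clock factors, neither of which contains the other. The AhR core was found in the promoter of 1 member, Nadsyn1, which has 3 matches starting at positions -187, -96 and 20 from the gene start, and it is held by 29.7% of all 33469 promoters of that length. The E-box was found in 0 of the 7, and it is held by 6.42% of all promoters. The promoter of Nadsyn1 (chr1:208439158-208439457, minus strand) is shown because it holds the matches, which are in capitals. That of Tdo2 (chr2:169585537-169585836, minus strand), the entry point of the de novo route, is shown beside it as a promoter without a match.
Nadsyn1: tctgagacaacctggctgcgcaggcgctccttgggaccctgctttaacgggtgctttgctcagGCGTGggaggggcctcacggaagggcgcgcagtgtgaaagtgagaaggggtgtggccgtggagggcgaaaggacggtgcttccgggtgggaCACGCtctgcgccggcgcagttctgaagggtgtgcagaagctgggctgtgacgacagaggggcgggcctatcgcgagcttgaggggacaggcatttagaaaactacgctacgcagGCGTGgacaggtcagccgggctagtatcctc
Tdo2: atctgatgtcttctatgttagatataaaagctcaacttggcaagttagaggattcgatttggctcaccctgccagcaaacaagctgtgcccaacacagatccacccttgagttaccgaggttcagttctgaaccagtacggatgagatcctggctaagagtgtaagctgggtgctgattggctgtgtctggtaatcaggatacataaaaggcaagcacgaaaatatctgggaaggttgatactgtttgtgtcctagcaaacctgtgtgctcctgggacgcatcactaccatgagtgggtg
A match describes the letters of the window and is not a measured binding site.

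All values are log2 ratios of liver RNA, labelled with Cy5, over universal rat reference RNA, a blend from 14 cell lines labelled with Cy3, so a value above 0 means more signal from liver than from the reference. The median Cy5 spot signal was 81 to 94 on the 8 arrays, against a local background of 68 to 73, and 42.9% to 49.2% of the spots stood well above it. The arrays fell into 2 slide blocks, defined by the first position number of the scan, with 2 arrays of each group in each block. Block 1 held 0.5MAhR replicates 2 and 4 and Control replicates 5 and 7, and block 2 held 0.5MAhR replicates 1 and 3 and Control replicates 6 and 8. Arrays of the same block correlated with r of 0.981 to 0.991 over genes and arrays of different blocks with 0.938 to 0.962, and the block was part of the fit. All 7 hepatocyte markers listed were measured, with a mean log2 ratio of 5.89 to 6.06 in 0.5MAhR livers and 5.99 to 6.23 in Control livers, and 6 of the 7 had negative differences (median -0.11, Cps1 lowest at -0.35). Cyp1a1, the classical AhR target, averaged 4.93 ± 0.59 in 0.5MAhR livers and 0.90 ± 0.53 in Control livers (SD, n = 4 each), a 16.4-fold difference with limma's adjusted p = 0.00278.

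Nampt had the largest difference of the 10 genes. Its log2 ratio was 0.45, 0.36, 0.26 and 0.12 in 0.5MAhR replicates 1 to 4, against 0.69, 0.80, 1.24 and 0.75 in Control replicates 5 to 8. Every 0.5MAhR pool lay below every Control pool, and Control replicate 7 stood above the other Control pools. Control replicate 7 was the highest Control pool in 6 of the 10 members and the lowest in 0, and Control replicate 6 the lowest in 6. Nampt averaged 0.30 ± 0.14 in 0.5MAhR livers and 0.87 ± 0.25 in Control livers (SD, n = 4 each), a difference of -0.57 (SE 0.13), or 1.48-fold lower. The difference was -0.72 within block 1 and -0.41 within block 2, and -0.43 without Control replicate 7. In whole liver, less Nampt RNA per cell and fewer cells that carry it cannot be told apart.

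The groups were also separate in the Nampt signal of the liver channel, although the order of the pools within a group was not that of the ratios. Before normalisation, background-subtracted Cy5 signal was 63.0, 57.2, 79.1 and 63.3 intensity units in 0.5MAhR replicates 1 to 4, against 84.6, 103.2, 159.1 and 122.8 in Control replicates 5 to 8. Background-subtracted Cy3 signal was 172 to 185 on the 0.5MAhR arrays and 167 to 182 on the Control arrays. The groups thus separated in Cy5 and overlapped in Cy3. In the normalised Cy3 channel, where all arrays carry the same reference RNA, Nampt differed by 0.02 (SE 0.02, limma's adjusted p = 0.999). None of the 10 members passed the threshold of 0.05 in Cy3, where 0.00946% of all genes tested did (limma, 1 gene of 10566). Below an unadjusted p of 0.05 in Cy3 were 4 members, where 3.63% of all genes were, namely Kmo with a Cy3 difference of -0.06 (SE 0.02), Kynu with 0.12 (SE 0.05), Haao with 0.08 (SE 0.03) and Nadsyn1 with 0.08 (SE 0.03). For these 4 genes the Cy3 differences are of the size of their log2 ratio differences, given with each gene, but the signs vary. The ratio is taken over Cy3, so a higher Cy3 signal alone lowers it. Kynu had opposite signs in Cy3 and in the ratio (-0.11). Kmo (-0.04), Haao (0.14) and Nadsyn1 (0.07) had the same sign in both. For Nampt the Cy3 difference is far smaller than its ratio difference.

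The Nampt probe was printed 10 times on each array. The log2 ratio of single spots varied within an array with an SD of 0.25 to 0.35, against an SD between pools of 0.14 in 0.5MAhR and 0.25 in Control. This spread within an array followed spot position, in opposite directions in the slide blocks. From position 1 to position 10 the ratio fell on every block 2 array, as from 0.93 to 0.15 in 0.5MAhR replicate 1 and from 1.08 to 0.16 in Control replicate 6. It rose on every block 1 array, as from 0.29 to 0.66 in 0.5MAhR replicate 2 and from 0.94 to 1.57 in Control replicate 7. The cause was not tested. Compared spot position by spot position, all 10 positions had a lower mean in 0.5MAhR than in Control, by -0.70 to -0.46. The spots of 1 array share its RNA and are not replicates of the group.

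**Figure D1:**
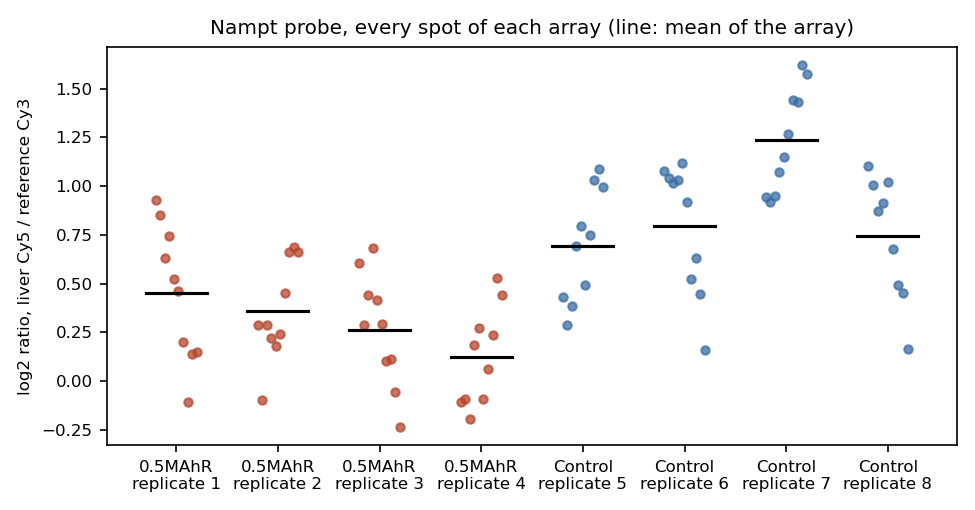
Log2 ratio of liver Cy5 over reference Cy3 (vertical axis) for every spot of the Nampt probe on each of the 8 arrays (horizontal axis, 0.5MAhR left and Control right); the line is the mean of the array. The 4 lines of 0.5MAhR lie at 0.12 to 0.45 and those of Control at 0.69 to 1.24, while single spots of the groups overlap.

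Against all 10566 genes or unnamed probes tested, Nampt ranked 12th from the lowest difference, and the middle of that distribution was narrow, with a 5th percentile of -0.17, a median of -0.01 and a 95th percentile of 0.20. Among the 10 members 7 had a negative and 3 a positive difference, with a median of -0.10 and a range of -0.57 to 0.14. With limma, 0 of the 10 members passed an adjusted p of 0.05, where 0.0473% of all genes did, and 2 members, Nampt and Acmsd, were below an unadjusted p of 0.05, where 6.34% of all genes were. Nampt was the 1 member whose groups did not overlap, where 0.53% of all genes were lower without overlap, 0.786% were higher and 1.32% were separated in either direction. Since the comparison was used to choose Nampt, nothing is read from these counts.

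**Figure D2:**
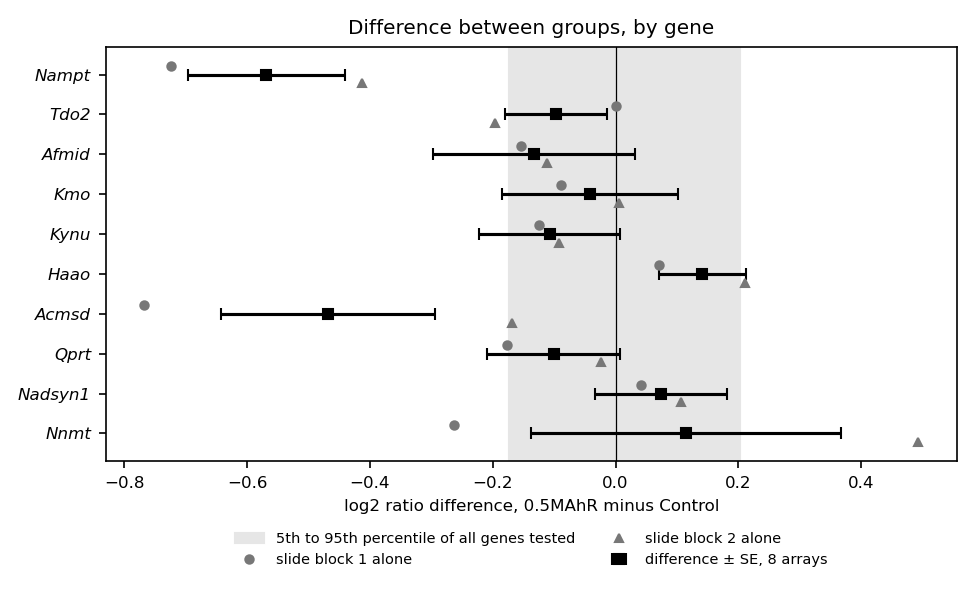
Difference in log2 ratio, 0.5MAhR minus Control (horizontal axis), for the 10 genes (vertical axis); squares and bars are the difference and its SE over 8 arrays, grey symbols the difference within each slide block, and the band the 5th to 95th percentile of all genes tested. Nampt (-0.57) and Acmsd (-0.47) lie outside the band, and the other 8 genes lie inside it.

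The de novo route opens with Tdo2, tryptophan 2,3-dioxygenase, the main tryptophan-degrading enzyme of hepatocytes. Its log2 ratio was 5.26, 5.28, 5.09 and 5.25 in 0.5MAhR replicates 1 to 4, against 5.15, 5.33, 5.39 and 5.41 in Control replicates 5 to 8. The groups overlapped, with the lowest value in 0.5MAhR replicate 3 and the next in Control replicate 5. Tdo2 averaged 5.22 ± 0.09 in 0.5MAhR livers and 5.32 ± 0.12 in Control livers (SD, n = 4 each), a difference of -0.10 (SE 0.08). The difference was 0.00 in block 1 and -0.20 in block 2, and 9 of its 10 spot positions were lower and 1 higher in 0.5MAhR. Dropped outlier spots left some positions without all arrays, so blocks were not balanced there. The 1 higher position lacked Control replicate 6.

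Afmid, the formamidase that releases kynurenine, gave 0.78, 1.30, 0.98 and 0.69 in 0.5MAhR replicates 1 to 4, against 0.91, 0.74, 1.39 and 1.24 in Control replicates 5 to 8. The ranges overlapped over most of their length and the difference was -0.13 (SE 0.16), from 1 spot per array. Kmo, kynurenine 3-monooxygenase, gave 2.17, 1.69, 2.23 and 2.38 in 0.5MAhR replicates 1 to 4, against 2.02, 2.03, 2.24 and 2.35 in Control replicates 5 to 8. The 0.5MAhR pools held both the lowest and the highest value, and the difference was -0.04 (SE 0.14). Afmid and Kmo were not well above background in Cy3 on any array, so their ratios rest on a reference signal near background.

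Kynu, kynureninase, which cleaves 3-hydroxykynurenine to 3-hydroxyanthranilate, gave 5.12, 5.37, 5.19 and 5.77 in 0.5MAhR replicates 1 to 4, against 5.82, 5.06, 5.57 and 5.44 in Control replicates 5 to 8. Its groups overlapped, with a difference of -0.11 (SE 0.11). Haao, which opens the ring of 3-hydroxyanthranilate on the way to quinolinate, gave 4.98, 4.35, 4.89 and 4.45 in 0.5MAhR replicates 1 to 4, against 4.29, 4.65, 4.36 and 4.79 in Control replicates 5 to 8. Haao had the highest difference of the 10 genes, 0.14 (SE 0.07), with 0.07 in block 1 and 0.21 in block 2. Its groups overlapped over all 8 arrays, whereas within block 2 both 0.5MAhR pools lay above both Control pools. How many of all genes separate so within 1 block was not counted.

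Qprt, quinolinate phosphoribosyltransferase, which commits quinolinate to NAD, gave 2.87, 3.48, 3.34 and 3.43 in 0.5MAhR replicates 1 to 4, against 3.56, 3.01, 3.70 and 3.24 in Control replicates 5 to 8. The lowest value lay in 0.5MAhR replicate 1, the groups overlapped, and the difference was -0.10 (SE 0.11). Nadsyn1, the NAD synthetase that amidates the nicotinate dinucleotide, gave 0.16, 0.52, 0.58 and 0.86 in 0.5MAhR replicates 1 to 4, against 0.61, 0.23, 0.69 and 0.29 in Control replicates 5 to 8. The 0.5MAhR pools again held both ends of the range, and the difference was 0.07 (SE 0.11). Nadsyn1, the gene whose promoter is printed above with 3 AhR cores, exceeded background in Cy5 on 3 of 4 0.5MAhR arrays and on 4 of 4 Control arrays.

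Acmsd encodes the decarboxylase that diverts the intermediate between Haao and quinolinate away from NAD. Its log2 ratio was 0.73, 1.18, 1.26 and 1.20 in 0.5MAhR replicates 1 to 4, against 1.85, 0.87, 2.06 and 1.45 in Control replicates 5 to 8. Control replicate 6 lay below 3 of the 4 0.5MAhR pools, and the other 3 Control pools lay above all of them. Acmsd averaged 1.09 ± 0.25 in 0.5MAhR livers and 1.56 ± 0.52 in Control livers (SD, n = 4 each), a difference of -0.47 (SE 0.17), or 1.38-fold lower. The difference was -0.77 in block 1 and -0.17 in block 2, and -0.64 to -0.37 when 1 array was left out. The probe was dim, with background-subtracted Cy5 signal of 26.8 to 55 intensity units on 0.5MAhR arrays and 34.5 to 102.2 on Control arrays, and it exceeded background in Cy5 on 3 of 4 arrays of each group and in Cy3 on none.

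Nnmt, nicotinamide N-methyltransferase, removes nicotinamide from salvage by methylation. Its log2 ratio was 2.18, 1.45, 1.67 and 1.44 in 0.5MAhR replicates 1 to 4, against 1.20, 1.11, 2.21 and 1.76 in Control replicates 5 to 8. The range of the 0.5MAhR pools lay inside that of the Control pools, and the difference of 0.12 (SE 0.25) had opposite signs in the blocks, with -0.26 in block 1 and 0.49 in block 2. When 1 array was left out the difference was -0.09 to 0.39. The lowest came without Control replicate 6, the lowest pool, and the highest (SE 0.18) without Control replicate 7, the highest pool. Its SE was the largest of the 10 genes although the probe was printed 10 times on each array.

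**Figure D3:**
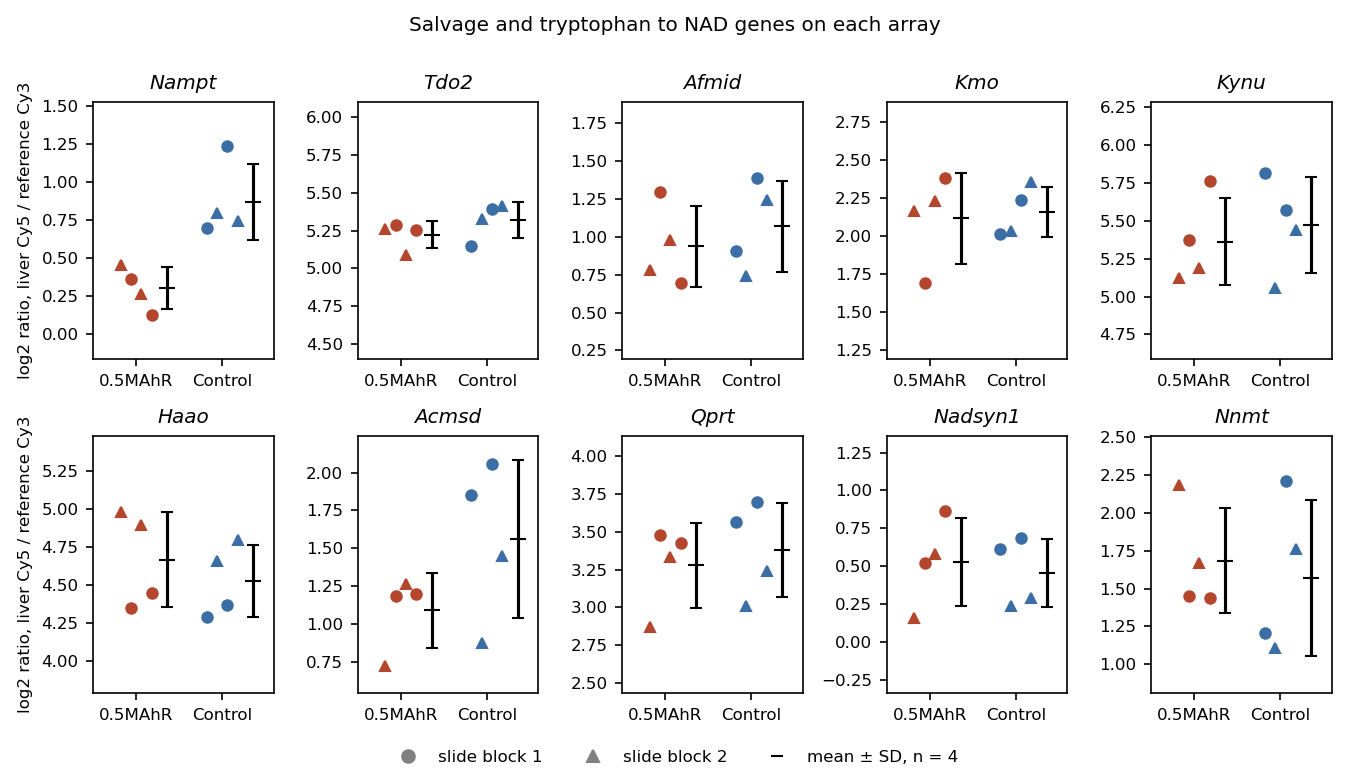
Log2 ratio of liver Cy5 over reference Cy3 (vertical axes, equal span in each panel) for the 10 genes on the 4 arrays of 0.5MAhR (left) and the 4 of Control (right), with the mean ± SD beside the points; circles are slide block 1 and triangles block 2. The groups separate for Nampt, at 0.12 to 0.45 in 0.5MAhR and 0.69 to 1.24 in Control, and overlap for the other 9 genes.

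Salvage was set against the de novo route on each array by subtracting Nampt from the mean of the 7 de novo genes (Tdo2, Afmid, Kmo, Kynu, Haao, Qprt and Nadsyn1), each taken relative to its Control mean. The result was 0.27, 0.45, 0.59 and 0.81 in 0.5MAhR replicates 1 to 4, against 0.17, -0.12, -0.23 and 0.18 in Control replicates 5 to 8. All 4 0.5MAhR pools lay above all 4 Control pools, with means of 0.53 ± 0.23 in 0.5MAhR livers and 0.00 ± 0.21 in Control livers (SD, n = 4 each). The gap was 0.66 in block 1 and 0.40 in block 2. The gap came from the Nampt term, which differed by -0.57, while the mean of the de novo genes differed by -0.04 and so narrowed it. Nampt was chosen with this comparison known, so nothing is read from the separation of the pools. The de novo mean lay between -0.15 and 0.07 in 0.5MAhR pools and between -0.19 and 0.14 in Control pools, so the groups overlapped on it.

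**Figure D4:**
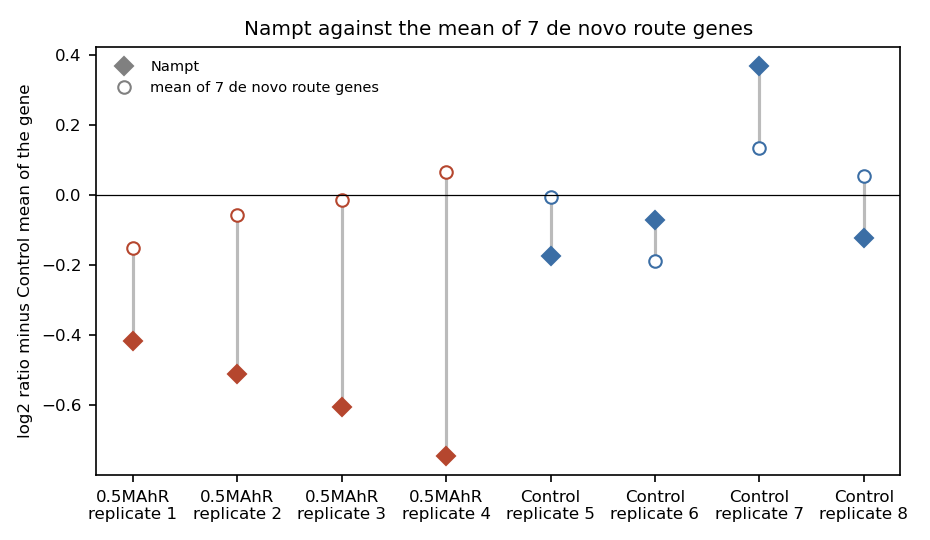
Log2 ratio minus the Control mean of the gene (vertical axis) for Nampt (diamonds) and for the mean of 7 de novo route genes (circles) on each array (horizontal axis, 0.5MAhR left and Control right). The line between the symbols spans 0.27 to 0.81 with Nampt below in all 4 0.5MAhR pools, while in Control pools the de novo mean lies between 0.23 below and 0.18 above Nampt.

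The slide block moved several of the de novo genes more than the group did. In the block term of the same fit, block 2 minus block 1, limma called 5 of the 10 members, where 56.9% of all genes passed. Kynu was lower in block 2 by -0.43 (adjusted p = 0.00992), Qprt by -0.43 (adjusted p = 0.00755), Acmsd by -0.50 (adjusted p = 0.0345) and Nadsyn1 by -0.36 (adjusted p = 0.0180), while 28.8% of all genes were lower in block 2. Haao was higher in block 2 by 0.47 (adjusted p = 0.000427), as were 28.1% of all genes. Nampt differed by -0.04 between blocks (adjusted p = 0.811), and Tdo2, Afmid, Kmo and Nnmt differed by 0.00, -0.14, 0.11 and 0.10 (adjusted p = 0.976, 0.503, 0.524 and 0.747). For Nampt, Tdo2 and Nnmt, printed 10 times, these terms average over spot positions at which the blocks differed in opposite directions. Tdo2 fell from 5.69 at position 1 to 4.84 at position 10 in Control replicate 8 (block 2). It rose from 5.02 to 5.81 in Control replicate 7 (block 1). Whether spot position enters the block terms of the other genes was not tested. Both groups had 2 arrays in each block, so the block shift enters both group means alike.

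Across the 8 arrays, after each block mean was subtracted, the correlation of Nampt with the other members was described without a test, since the points share the group difference and the reference RNA. It was 0.67 for Acmsd, 0.59 for Tdo2, 0.50 for Afmid, 0.33 for Qprt, 0.29 for Nnmt, 0.05 for Kmo, 0.00 for Kynu, -0.36 for Nadsyn1 and -0.50 for Haao. Among 6937 other named genes patterns close to that of Nampt, by the same measure, included those of Hp (0.95), Scamp4 (0.94) and Doxl1 (0.94). The most opposite were Vim (-0.97), Smtnl2 (-0.97), Dynlt1 (-0.95) and Stk4 (-0.94). Without subtracting block means the value was 0.85 for Hp and 0.84 for Doxl1 but 0.14 for Scamp4. It was -0.95 for Dynlt1, -0.62 for Vim, -0.45 for Smtnl2 and -0.18 for Stk4. All these genes were picked as extremes of the 6937, so nothing is read from the size of their correlations. Hp encodes haptoglobin, an acute phase protein of hepatocytes, and differed by -0.22 (SE 0.10).

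Nampt is also made by cells other than hepatocytes, and markers of 2 such types were read beside it. The 2 neutrophil markers that could be tested, S100a8 and S100a9, differed by -0.16 (SE 0.17) and -0.40 (SE 0.22), with a mean log2 ratio of 1.80 to 2.40 in 0.5MAhR livers and 2.02 to 2.96 in Control livers. Of the other 4 neutrophil markers, Csf3r, Cxcr2 and Ngp stayed at background on all 8 arrays and Mpo had no probe. All 7 Kupffer cell markers tested, of 8 listed, had positive differences, from 0.01 (Clec4f, SE 0.08) to 0.37 (Cd5l, SE 0.19). Several were smaller than their SE, among them Cd163 (0.03, SE 0.12) and Marco (0.16, SE 0.23), and none passed the threshold. Their mean log2 ratio was 2.67 to 3.25 in 0.5MAhR livers and 2.45 to 2.89 in Control livers. The part of these cells in the Nampt difference was not tested.

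The wider set of NAD and tryptophan genes held 53 genes, of which 43 had a probe and 32 were tested. With limma 0 of the 32 passed an adjusted p of 0.05, where 0.0473% of all genes did. Below an unadjusted p of 0.05 were 4 of them (Aox1, Ddc, Nadk and Nadk2), where 6.34% of all genes were. Of the 32, 19 had positive and 13 negative differences, with a median of 0.02, beside -0.01 over all genes tested. The filter was passed through 0.5MAhR alone by 1 of them and through Control alone by 2. Of the genes without a test, Cd38, which consumes NAD, stayed at background on all 8 arrays, and Ido2, Sirt1 and Tiparp had no probe matched to their symbol.

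Aox1, an aldehyde oxidase that oxidises methylated nicotinamide, had the largest difference of the 32. Its log2 ratio was 3.93, 3.28, 3.91 and 3.58 in 0.5MAhR replicates 1 to 4, against 2.58, 3.50, 2.97 and 3.12 in Control replicates 5 to 8. The groups overlapped through Control replicate 6 alone, and within each block both 0.5MAhR pools lay above both Control pools. The share of all genes that separate in this way within blocks was not counted, so nothing is read from it. The difference was 0.64 (SE 0.12, 1.55-fold, limma's adjusted p = 0.191), with 0.66 in block 1 and 0.61 in block 2. Ddc, the aromatic amino acid decarboxylase of serotonin synthesis, differed by 0.38 (SE 0.14, adjusted p = 0.651), and a second probe gave 0.32.

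The enzymes that make or rebalance NADP had differences of 0.00 to 0.25 in 4 of 4 tested genes, none past the threshold. Nudt12, a hydrolase of NADH and NADPH, differed by 0.25 (SE 0.12, limma's adjusted p = 0.812), and the mitochondrial NAD kinase Nadk2 by 0.24 (SE 0.10, adjusted p = 0.781). Nadk, the cytosolic NAD kinase, differed by 0.20 (SE 0.08, adjusted p = 0.712). The 4 tested genes of salvage and adenylyl transfer beside Nampt had differences of -0.04 (Nmrk1) to 0.12 (Nt5e). Nmnat1, which adds the adenylyl group to the product of Nampt and of Qprt, differed by 0.00 (SE 0.09), and Naprt, which starts salvage from nicotinic acid, by 0.00 (SE 0.07). Aadat, which makes kynurenic acid in a side branch, differed by -0.05 (SE 0.06) and Parp1, a main consumer of NAD, by 0.13 (SE 0.08).

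**Figure D5:**
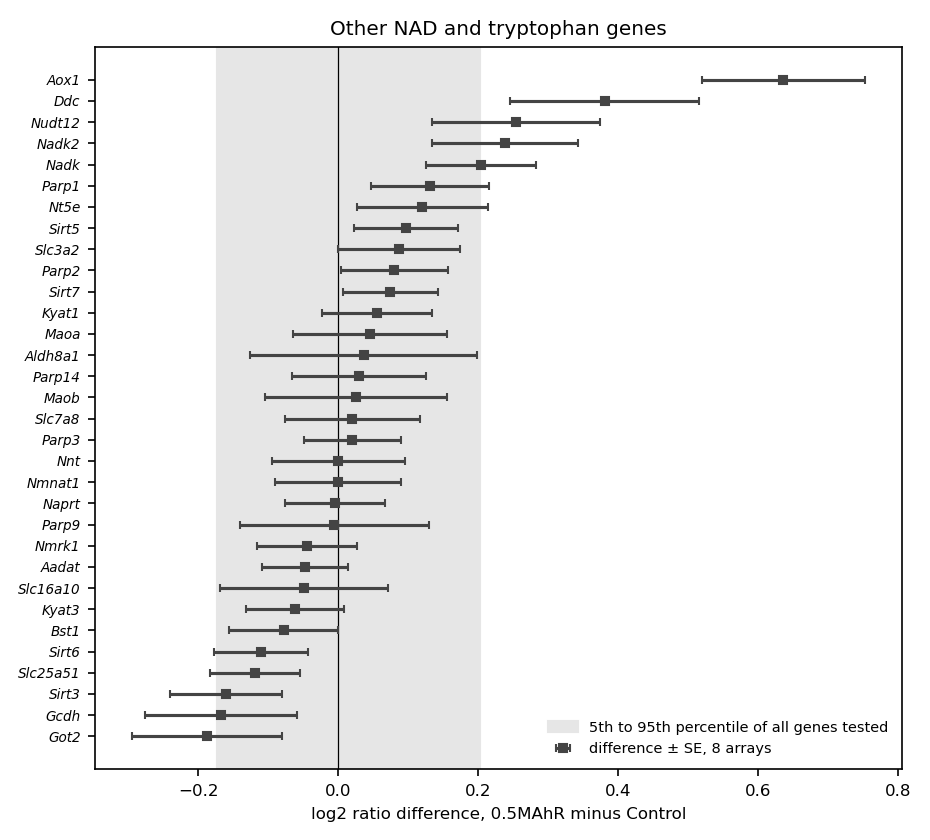
Difference in log2 ratio, 0.5MAhR minus Control (horizontal axis), with its SE over 8 arrays, for the 32 other NAD and tryptophan genes tested (vertical axis, sorted); the band is the 5th to 95th percentile of all genes tested. Aox1 (0.64) and Ddc (0.38) lie farthest to the right, and Got2 (-0.19) farthest to the left.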

How the data were processed

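Liver RNA was amplified from 200 ng and hybridised with a common reference RNA, the sample in Cy5 and the reference in Cy3 on all 8 arrays, per the labels, so a dye bias is shared by both groups and was not measured. The deposited intensity values were, per the file headers, made with Agilent Feature Extraction, version 11.0.1.1. Median foreground and background signals of each channel were used. The deposited value table, an alternative here, holds log2 ratios, and no label or header used here says how they were made. Against loess ratios of the scanner signals its r was 0.997 to 0.998, with a slope of 0.995 to 1.00 and column medians of -0.0389 to -0.0326, so its scale and direction (Cy5 over Cy3) are settled and its centring is not.

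Signals were background-corrected by normexp (offset 50) and normalised by loess, without weight for control spots, using limma 3.58.1 under R 4.3.3. Spots marked as outliers were dropped, and the remaining spots of each probe were averaged. No spot was saturated. Of 30367 probes, 18005 received a symbol from their accession through the RefSeq table of GRCr8, used for names and promoters. Tested probes had more than 0.5 of their spots marked as above background in Cy5 on 3 or more arrays of either group, and the brightest probe stood for its gene, leaving 10566 genes or unnamed probes, 6938 of them named.

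The fit held group and slide block (lmFit and eBayes, Benjamini-Hochberg over all genes, two-sided). The Cy3 channel was fitted likewise after quantile normalisation. The code was tested on simulated data. The members, the gene lists and the comparisons were chosen with earlier results of these data known. Named beyond the members were the 4 listed genes with the largest differences, a listed set of pathway genes, and the 4 genes most like and 4 most unlike Nampt, of which 1 is not reported here. The markers of other cell types, of which only those of hepatocytes, neutrophils and Kupffer cells are described, included 5 more lists in which no gene passed.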

Additional observations from a re-analysis of the deposited data

Results flagged for a closer look

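Tdo2 in 0.5MAhR replicate 3, at a log2 ratio of 5.09 (5.088), lay far below the other 3 pools of its group, which were at 5.25 to 5.28. Acmsd in 0.5MAhR replicate 1, at 0.73 (0.7254), lay far below the other 3 pools of its group, which were at 1.18 to 1.26. In each case a gap test for a single far value in a group of 4, run on ratios as they stand, picked the pool out. With each slide block mean subtracted, Tdo2 gave -0.01, 0.02, -0.18 and -0.02 in 0.5MAhR replicates 1 to 4, so replicate 3 was still the lowest. Acmsd then gave -0.35, -0.39, 0.18 and -0.38, so replicate 1 no longer stood apart and replicate 3 was the highest. Chance alone picks out about 1 in 20 groups, and 44 groups were read.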

How the results depend on the processing

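Signal over background limits what could be measured, most of all for Acmsd, Afmid, Kmo and Nadsyn1, and 4 pools a group limit the precision. Nampt was lower in 0.5MAhR under all 23 alternatives (-0.86 to -0.41), with -0.86 from the scanner software's processed signals and -0.65 to -0.43 when 1 array was left out. Acmsd was lower under all 22 (-0.98 to -0.17), Kynu and Qprt were lower and Haao higher under all 23, whereas Kmo was higher under 6 of 23, Nnmt lower under 4 of 23, Tdo2 and Afmid higher under 1 of 23 each and Nadsyn1 lower under 1 of 22. Some alternatives changed only the fitted terms, the variance model, the genes tested or the use of several probes per gene. These returned the main difference for a member, -0.57 for Nampt, so their sign was fixed in advance and adds no weight to the counts. With processed signals Afmid gave 0.21, Kynu -0.39 and Haao 0.01. With Cy5 alone Kynu gave -0.01 (SE 0.10) and Tdo2 -0.24 (SE 0.24). The de novo genes minus Nampt gave 0.85 with processed signals and 0.42 to 0.62 without 1 array.

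None of the 10 members and none of the 32 other pathway genes passed under any alternative run with limma. The 5 genes passing overall became 3 with median centring, 0 with processed signals (860 at an unadjusted p below 0.05), 14 with Cy5 alone, 1 without the slide block, 0 with the slide row in the fit (76 at an unadjusted p below 0.05), 2 in block 1 alone, 0 in block 2 alone (591 at an unadjusted p below 0.05), 3 with probes above background on all 8 arrays and 3 with a trended robust variance. They became 1 to 11 without 1 array, with 1 without 0.5MAhR replicate 3 or 4 or Control replicate 5, 2 without 0.5MAhR replicate 1 or Control replicate 6 or 8, 8 without Control replicate 7 and 11 without 0.5MAhR replicate 2. The count between slide blocks, 6016, became 3747 with median centring, which also moved the share of genes higher in 0.5MAhR to 58.4% against 46.8%. The Cy3 count of 1 became 2 without background correction and 1 to 7 without 1 array, 7 without 0.5MAhR replicate 2 and 2 without 0.5MAhR replicate 3. The cause of these changes was not tested. No paired analysis was possible because the groups share no replicate number, other than by slide row, each of which holds 1 array of either group and which gave Nampt -0.57 (SE 0.16).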
